A study of Homo sapiens with 10 samples.

Results

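Cytochrome P450 enzymes (CYP) and UDP-glucuronosyltransferases (UGT) were followed in human liver cancer cell lines treated with inhibitors of CDK4/6 and of XPO1. The members are every entry of the deposited expression table whose symbol starts with CYP and a digit, leaving out the sterol synthesis gene CYP51A1, or with UGT1A or UGT2B. The rule found 72 genes of the 20030 in the table: 56 CYP genes, 9 UGT1A genes and 7 UGT2B genes. The labels call the lines Huh7, PLC and 97H and describe each as a liver cancer line. PLC and 97H cells received the combination of both inhibitors, the XPO1 inhibitor KPT330 (selinexor) alone, the CDK4/6 inhibitor alone (not named in the labels) or vehicle as control. Huh7 cells received the CDK4/6 inhibitor or vehicle only. Each line and treatment has 1 library, 10 in all, so no condition was repeated within a line, and the spread behind each treatment test is that of the treatment effect between lines. The labels give neither doses, times nor batches. Each line is a single cultured model of a tumour and not a set of patients.

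P450 enzymes are heme proteins that insert oxygen into lipophilic molecules, taking electrons from POR in the endoplasmic reticulum or from ferredoxin in mitochondria. UGT enzymes join glucuronic acid to bilirubin, steroids, bile acids and drugs, which makes them soluble for export. The liver is the main site of both systems, and many of the genes are switched on by the aryl hydrocarbon receptor, by nuclear receptors such as PXR (NR1I2) and CAR (NR1I3), and by liver factors such as HNF4A.

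Levels are given in FPKM, which counts sequenced fragments per unit of transcript length and of library size, as deposited by the authors. The tests were made with limma on the log2(FPKM + 1) scale over the 10477 genes whose mean reached 1 FPKM. A gene was called where its p, adjusted over all of these by Benjamini-Hochberg, was under 0.05. The pseudocount of 1 shrinks the differences of low genes. Absolute sequencing depth cannot be read from FPKM; between 14033 and 15264 genes were above 0 in each library. The PLC control library stood apart: it had the fewest genes above 0, and 11.9% to 18.2% of tested genes lay at least 1 log2 unit higher in each treated PLC library, against 2.15% to 7.67% in 97H and 3.91% in Huh7. All 15 hepatocyte and liver cancer markers reached 1 FPKM in every Huh7 and PLC library. Their summed levels were 7642 to 10410 FPKM in Huh7 and 866 to 2597 FPKM in PLC. In 97H only 8 to 11 of the 15 reached 1 FPKM, with sums of 51.3 to 96.1 FPKM. The liver cancer label thus rests on fewer and lower markers there.

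Most of the drug-metabolizing P450 system was at or near 0 in these lines, and a small set of members carried nearly all of the signal. Between 7 members in the PLC control and 17 in the Huh7 control and in the 97H combination and XPO1 inhibitor libraries reached 1 FPKM. That is 9.72% to 23.6% of the members, where 45.3% to 50.7% of all genes reached 1 FPKM. Over the 10 libraries 19 members had a mean of at least 1 FPKM and could be tested, 13 CYP and 6 UGT genes. The lowest of these were CYP3A5 at a mean of 1.13 FPKM and CYP4F12 at 1.23 FPKM, and the nearest below were CYP3A7 at 0.844 and UGT1A9 at 0.820 FPKM. Of the other 53 members, 12 reached 1 FPKM in some library, 31 stayed between 0 and 1 FPKM throughout, and 10 were listed at 0 in every library. The 10 are CYP2A6, CYP2A7, CYP2A13, CYP2F1, CYP4A11, CYP4A22, CYP4F8, CYP4Z1, CYP11B1 and CYP11B2.

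**Figure D1:**
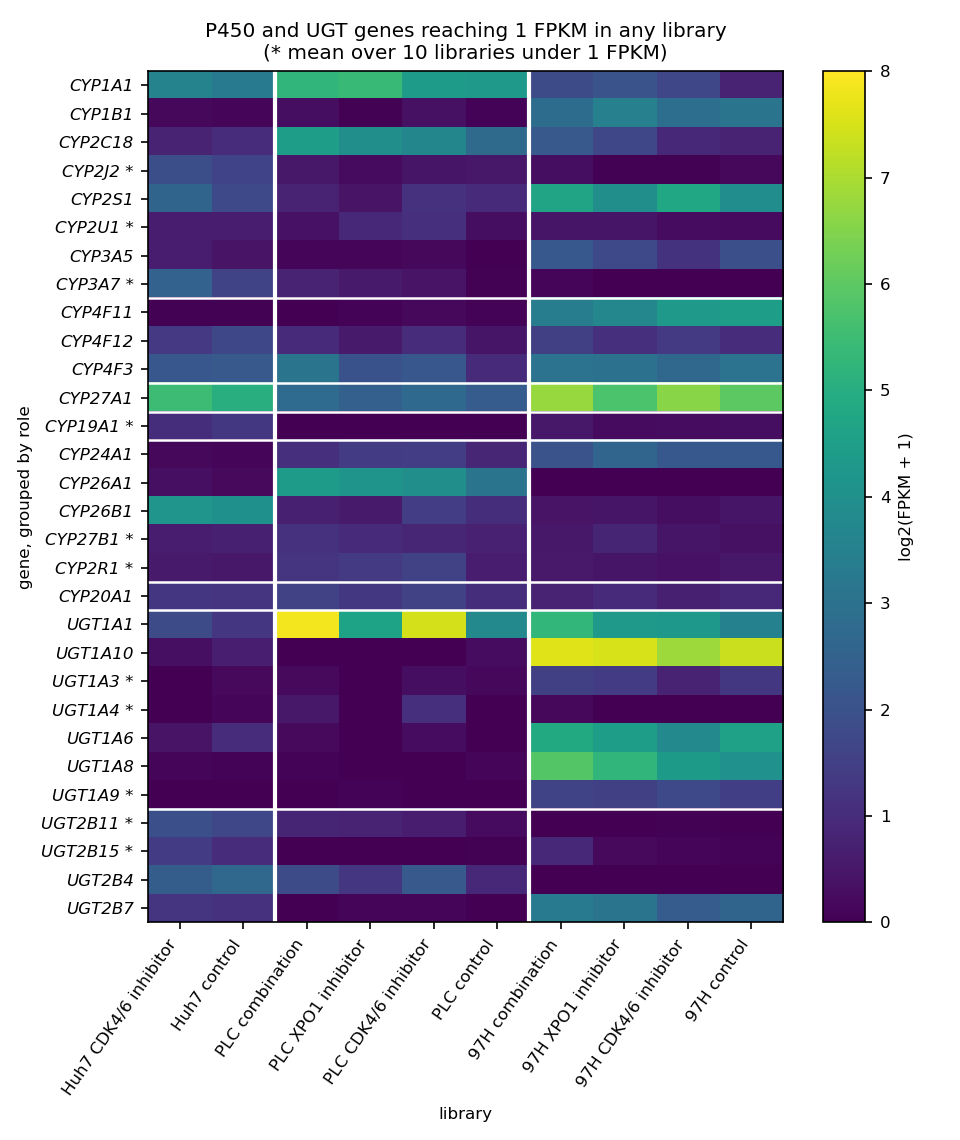
Level of 30 of the 31 members that reached 1 FPKM in any library, as log2(FPKM + 1) by colour, with genes in rows grouped by role and the 10 libraries in columns grouped by line. UGT1A1 is brightest in the PLC combination library (230.2 FPKM) and UGT1A10 in the 97H combination library (195 FPKM), and an asterisk marks the 11 genes shown with a mean under 1 FPKM.

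The UGT1A genes lie on chromosome 2 (GRCh38, 233617645 to 233773310, plus strand, GENCODE 29). Each joins a first exon of its own to a shared set of later exons, and their starts run from UGT1A8 through UGT1A10, UGT1A9, UGT1A7, UGT1A6, UGT1A5, UGT1A4 and UGT1A3 to UGT1A1 over 142.603 kb. Reads in the shared exons cannot tell the genes apart, and 31 deposited UGT1A values in 8 of the 9 genes lie above 0 but no higher than 1.45e-06 FPKM, while the next member value upward is 0.00248 FPKM. How reads were divided among the genes is not given in the sources used here, so the split between UGT1A genes is uncertain and the family sum is the safer number. Values this small are treated as 0 below.

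The start regions of the UGT1A genes at both ends of the locus are shown because PLC had nearly all of its UGT1A signal listed under UGT1A1, whereas 97H had signal listed under the genes at both ends: UGT1A1, the bilirubin enzyme of the liver, and UGT1A8, known mainly from the intestine. Both are RefSeq promoter sequences on GRCh38.p14, plus strand, running 250 bases before and 50 bases after the annotated start. The UGT1A1 window is chr2:233760020-233760319 and the UGT1A8 window chr2:233617383-233617682. Capitals in UGT1A8 mark CACGC, the reverse complement of GCGTG, the core read by the aryl hydrocarbon receptor, with its first base at -26 from the start; GCGTG was found on neither strand of the UGT1A1 window, which is all in lower case.
UGT1A1: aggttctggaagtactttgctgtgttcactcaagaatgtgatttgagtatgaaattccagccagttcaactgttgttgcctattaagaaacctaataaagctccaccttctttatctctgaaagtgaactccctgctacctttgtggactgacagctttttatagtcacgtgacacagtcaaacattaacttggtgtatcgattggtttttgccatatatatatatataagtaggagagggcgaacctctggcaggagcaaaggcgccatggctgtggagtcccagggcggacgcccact
UGT1A8: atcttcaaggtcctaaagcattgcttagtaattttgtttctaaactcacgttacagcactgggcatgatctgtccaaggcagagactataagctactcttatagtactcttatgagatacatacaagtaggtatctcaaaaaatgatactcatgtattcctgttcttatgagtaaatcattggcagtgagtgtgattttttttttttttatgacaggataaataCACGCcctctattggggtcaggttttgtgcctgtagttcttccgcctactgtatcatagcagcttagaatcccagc
Searched on both strands, GCGTG is in 36.5% of all 35116 promoter entries, so a match is not rare. Among the members, 51 had an entry, 65 entries in all; 18 of these hold GCGTG. UGT1A10 and CYP2C18 are named here without a sequence.

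UGT1A1 had the largest difference from its control within a line, on the log2(FPKM + 1) scale, of the 19 tested members. PLC cells expressed UGT1A1 at 230.2 FPKM with the combination, 23.8 with the XPO1 inhibitor, 177 with the CDK4/6 inhibitor and 12.5 in the control. Both PLC libraries that received the CDK4/6 inhibitor were far above the PLC libraries that did not, 18.4 times the control for the combination, 14.1 times the control for the CDK4/6 inhibitor alone, and 9.68 times the XPO1 inhibitor library for the combination. UGT1A1 in 97H cells was at 38.3 FPKM with the combination, 18.8 with the XPO1 inhibitor, 18.3 with the CDK4/6 inhibitor and 10.6 in the control. There the combination stood at 3.62 times the control and each inhibitor alone at 1.73 to 1.78 times. In Huh7 cells UGT1A1 had 2.51 FPKM with the CDK4/6 inhibitor and 1.40 in the control, a ratio of 1.79. In every line each treated library was above its own control for UGT1A1, and the ratio was largest in PLC. This pattern rests on the uncertain split between UGT1A genes. With the CDK4/6 inhibitor the family sum was below the control in 97H (166 against 214 FPKM) and Huh7 (3.21 against 3.46 FPKM). In the other treated libraries the family sum was above the control. In bulk RNA a larger share of expressing cells and a higher level per cell cannot be told apart. Of 5 leukocyte markers, 1 reached 1 FPKM in each PLC library, with sums of 127 FPKM with the combination, 24.5 with the XPO1 inhibitor, 64.3 with the CDK4/6 inhibitor and 23.05 in the control. In 97H the sums were 124 FPKM with the combination, 61.1 with the XPO1 inhibitor, 100.3 with the CDK4/6 inhibitor and 57.5 in the control, and in Huh7 10.9 FPKM with the CDK4/6 inhibitor and 4.21 in the control. The sums of 6 stellate and fibroblast markers were 32.0 FPKM with the combination, 8.37 with the XPO1 inhibitor, 8.65 with the CDK4/6 inhibitor and 3.77 in the control of 97H, 139 FPKM with the CDK4/6 inhibitor and 34.1 in the control of Huh7, and at most 0.433 FPKM in PLC. As for UGT1A1, each treated library had a higher sum of both lists than the control of its line. PTPRC, the pan-leukocyte surface phosphatase, did not exceed 0.0226 FPKM in any of the 10 libraries. The part of these markers in the UGT1A1 levels was not tested.

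None of these UGT1A1 differences passed the adjustment. With limma the combination against control came to a log2 difference of 2.93 (SE 0.68, adjusted p = 0.118), the CDK4/6 inhibitor against control to a log2 difference of 1.67 (SE 0.59, adjusted p = 0.495), and the combination against the XPO1 inhibitor to a log2 difference of 2.11 (SE 0.68, adjusted p = 0.755). The call for the combination depended on the settings: it passed under median ratio scaling (adjusted p = 0.0321), with GC content and length trends removed (adjusted p = 0.0314), and when any 1 of the 4 PLC and 97H libraries treated with a single inhibitor was left out (adjusted p = 0.00336 to 0.0169). The difference stayed at 2.82 to 2.93 log2 units in these fits. It did not pass under any other setting run, where the adjusted p was 0.0627 to 1. Without the PLC control the difference was 2.03 (adjusted p = 0.298), without the PLC combination library 2.28 (adjusted p = 0.598), and without the 97H control 3.83 (adjusted p = 0.0707). The CDK4/6 inhibitor difference was 0.87 without the PLC library with that inhibitor (adjusted p = 0.674) and 0.97 without the PLC control (adjusted p = 0.419). The combination against the XPO1 inhibitor was 1.27 without the PLC XPO1 inhibitor library and 1.45 without the PLC combination library (adjusted p = 1 for both).

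UGT1A10, UGT1A8 and UGT1A6 were abundant in 97H and low in the other lines. 97H cells expressed UGT1A10 at 195 FPKM with the combination, 183 with the XPO1 inhibitor, 112 with the CDK4/6 inhibitor and 162 in the control. In PLC it was at most 7.67e-08 FPKM in the 3 treated libraries and 0.194 FPKM in the control, and in Huh7 at 0.252 FPKM with the CDK4/6 inhibitor and 0.609 FPKM in the control. UGT1A10 is known as an extrahepatic enzyme, and here it was the most abundant member of 97H cells in all 4 libraries. All 3 intestinal markers reached 1 FPKM in 97H, with sums of 36.1 to 59.7 FPKM, and also in Huh7, with sums of 176 to 198 FPKM. In PLC all 3 did with the combination and the CDK4/6 inhibitor, and 2 with the XPO1 inhibitor and in the control. The PLC sums were 9.87 to 24.8 FPKM. The part of these markers in the UGT1A levels was not tested. UGT1A8 in 97H cells was at 57.6 FPKM with the combination, 37.5 with the XPO1 inhibitor, 19.4 with the CDK4/6 inhibitor and 15.5 in the control. The combination library stood at 3.71 times the control and the XPO1 inhibitor library at 2.42 times. In 97H cells UGT1A6 had 28.2 FPKM with the combination, 21.0 with the XPO1 inhibitor, 12.5 with the CDK4/6 inhibitor and 22.9 in the control. UGT1A6 conjugates simple phenols, and its 97H libraries did not follow the order of UGT1A8, the CDK4/6 inhibitor library being lowest. Outside 97H the highest values were 1.003 FPKM for UGT1A6 and 0.104 FPKM for UGT1A8, both in Huh7. UGT1A9, UGT1A3, UGT1A4 and UGT1A7 stayed lower, with highest values of 2.405 FPKM (97H, CDK4/6 inhibitor), 1.88 FPKM (97H, combination), 1.09 FPKM (PLC, CDK4/6 inhibitor) and 0.780 FPKM (97H, combination). UGT1A5 did not exceed 0.130 FPKM.

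**Figure D2:**
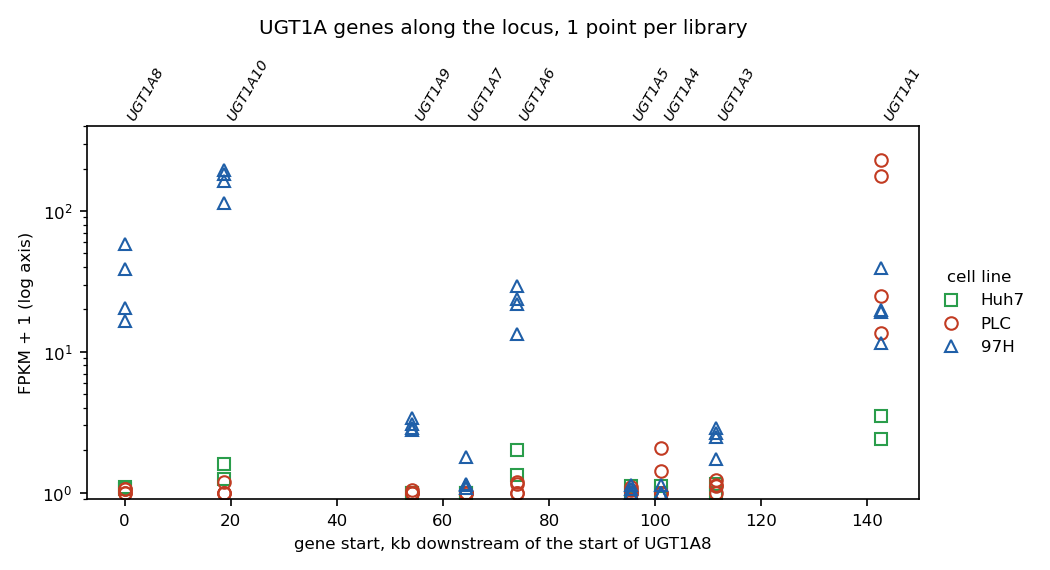
FPKM + 1 of the 9 UGT1A genes (log axis) against the start of each gene in kb downstream of the start of UGT1A8, 1 point per library, by line. PLC points rise above 10 at UGT1A1 only, at 142.603 kb, while 97H points do so at UGT1A8, UGT1A10, UGT1A6 and UGT1A1.

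Summed over the 9 genes, the family reached 231 FPKM with the combination, 23.8 with the XPO1 inhibitor, 178 with the CDK4/6 inhibitor and 12.9 in the control of PLC. UGT1A1 held 97.1% to 99.8% of the PLC sums. In 97H the sums were 324 FPKM with the combination, 264 with the XPO1 inhibitor, 166 with the CDK4/6 inhibitor and 214 in the control, with UGT1A10 holding 60.2% to 75.6%. Huh7 had 3.21 FPKM with the CDK4/6 inhibitor and 3.46 FPKM in the control. The PLC order was the same in the sum as in UGT1A1, whereas in 97H the CDK4/6 inhibitor library had the lowest sum and the combination the highest.

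**Figure D3:**
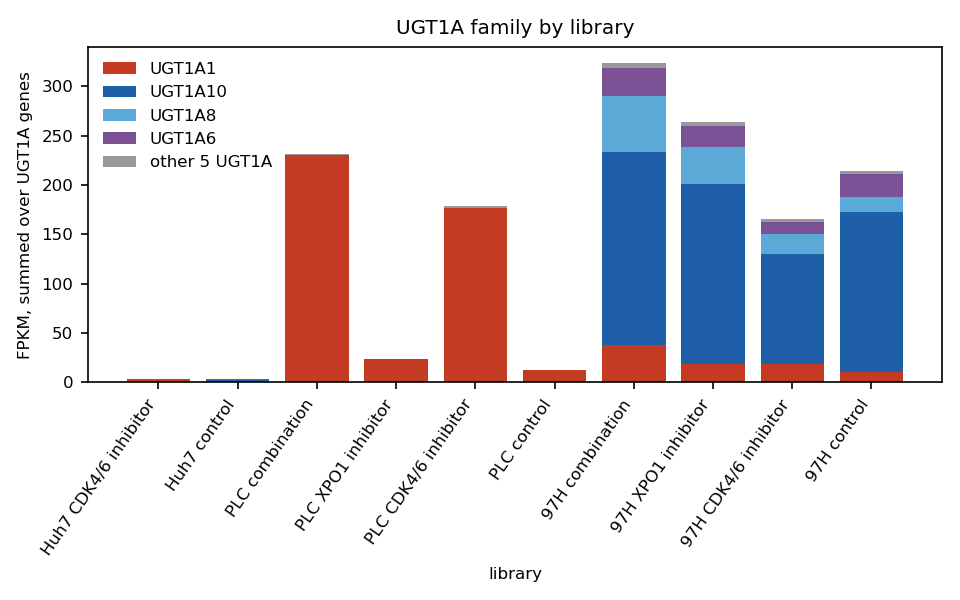
Stacked bars of FPKM for the UGT1A genes in each library, with colours for UGT1A1, UGT1A10, UGT1A8, UGT1A6 and the remaining 5. The PLC bars are nearly all UGT1A1, with 231 FPKM for the combination and 12.9 FPKM for the control, and the 97H bars are mostly UGT1A10.

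The UGT2B genes, on chromosome 4, conjugate steroids, bile acids and drugs such as morphine, the last a substrate of UGT2B7. 97H cells expressed UGT2B7 at 8.82 FPKM with the combination, 7.42 with the XPO1 inhibitor, 3.98 with the CDK4/6 inhibitor and 4.96 in the control. It was at 1.36 FPKM with the CDK4/6 inhibitor and 1.21 FPKM in the control of Huh7, and no PLC library exceeded 0.0739 FPKM. UGT2B4, a bile acid and steroid enzyme, was listed at 0 in all 4 97H libraries, the line in which UGT2B7 was highest. Both genes had a higher mean in Huh7 than in PLC, a difference called for UGT2B7 only. UGT2B4 in Huh7 cells was at 4.18 FPKM with the CDK4/6 inhibitor and 5.57 in the control. In PLC cells UGT2B4 had 2.59 FPKM with the combination, 1.40 with the XPO1 inhibitor, 3.74 with the CDK4/6 inhibitor and 0.881 in the control. The PLC control library was the lowest of the 4 and the CDK4/6 inhibitor library the highest. UGT2B11 and UGT2B15 were highest in the Huh7 library with the CDK4/6 inhibitor, at 2.85 and 1.66 FPKM, while UGT2B10, UGT2B17 and UGT2B28 reached at most 0.615 FPKM. The UGT2B genes are close paralogs, so their reads may be split uncertainly.

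Among the 22 P450 genes of the drug-metabolizing families, 5 could be tested and 4 were listed at 0 throughout. CYP3A4, CYP2D6, CYP2C8, CYP2C19, CYP1A2 and CYP2B6, central to drug clearance in adult liver, reached at most 0.0481, 0.139, 0.0574, 0.207, 0.0888 and 0.489 FPKM in any library, and the ethanol-oxidizing CYP2E1 reached 0.893 FPKM. CYP2J2, an arachidonic acid epoxygenase, peaked at 2.78 FPKM in Huh7 with the CDK4/6 inhibitor. CYP2U1 peaked at 1.14 FPKM in PLC with the CDK4/6 inhibitor. CYP3A7, the fetal liver form, had 4.67 FPKM with the CDK4/6 inhibitor and 2.11 FPKM in the control of Huh7. It overlaps the readthrough gene CYP3A7-CYP3A51P, which peaked at 0.602 FPKM in the same line. CYP3A5 belonged to 97H instead. 97H cells expressed CYP3A5 at 3.65 FPKM with the combination, 2.42 with the XPO1 inhibitor, 1.23 with the CDK4/6 inhibitor and 2.84 in the control.

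CYP1A1, which oxidizes polycyclic aromatic compounds and is the classical target of the aryl hydrocarbon receptor, was the most abundant P450 of PLC cells in every library. Its start region is shown because it carries that receptor's core close to the start: GCGTG in capitals, first base at -57 (RefSeq, GRCh38.p14, chr15:74725479-74725778, minus strand).
CYP1A1: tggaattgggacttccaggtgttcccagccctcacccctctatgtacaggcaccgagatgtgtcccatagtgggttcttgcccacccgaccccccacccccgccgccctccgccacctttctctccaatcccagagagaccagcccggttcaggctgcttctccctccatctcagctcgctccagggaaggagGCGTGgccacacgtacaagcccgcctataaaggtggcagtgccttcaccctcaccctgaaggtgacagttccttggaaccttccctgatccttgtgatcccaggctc
CYP1A1 in PLC cells was at 37.7 FPKM with the combination, 41.0 with the XPO1 inhibitor, 20.6 with the CDK4/6 inhibitor and 19.2 in the control. In 97H cells CYP1A1 had 2.55 FPKM with the combination, 3.13 with the XPO1 inhibitor, 2.28 with the CDK4/6 inhibitor and 0.750 in the control. Huh7 cells expressed CYP1A1 at 10.9 FPKM with the CDK4/6 inhibitor and 8.78 in the control. In PLC and in 97H the XPO1 inhibitor and combination libraries were the highest pair, and in PLC the CDK4/6 inhibitor library was within 1.07 times the control. The XPO1 inhibitor against control came to a log2 difference of 1.15 (SE 0.39, adjusted p = 0.968), and the combination to a log2 difference of 0.98 (SE 0.39, adjusted p = 0.336), so neither was called with limma. Of the fits that were run, the combination passed only with GC content and length trends removed (adjusted p = 0.0438). That setting was added after the data were seen. The adjusted p was 0.353 under quantile normalization and 0.449 with no filter. The related CYP1B1, an extrahepatic enzyme of estrogen and hydrocarbon oxidation, was a 97H gene. CYP1B1 in 97H cells was at 6.16 FPKM with the combination, 10.2 with the XPO1 inhibitor, 6.42 with the CDK4/6 inhibitor and 7.47 in the control. The highest value in the other lines was 0.286 FPKM.

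CYP2C18 (chromosome 10, 94683621 to 94736190, plus strand), a member of the CYP2C cluster with little protein reported in liver, carried most of that cluster in PLC. In PLC cells CYP2C18 had 21.2 FPKM with the combination, 14.4 with the XPO1 inhibitor, 11.7 with the CDK4/6 inhibitor and 5.87 in the control. 97H cells expressed CYP2C18 at 3.69 FPKM with the combination, 2.29 with the XPO1 inhibitor, 0.860 with the CDK4/6 inhibitor and 0.685 in the control. CYP2C18 in Huh7 cells was at 0.688 FPKM with the CDK4/6 inhibitor and 1.03 in the control. In PLC and 97H the order was the same, with the combination highest, then the XPO1 inhibitor, the CDK4/6 inhibitor and the control, whereas in Huh7 the CDK4/6 inhibitor library was the lower. With limma the combination against control came to a log2 difference of 1.59 (SE 0.39, adjusted p = 0.144), the XPO1 inhibitor to a log2 difference of 1.07 (SE 0.39, adjusted p = 0.968), and the combination against the CDK4/6 inhibitor to a log2 difference of 1.07 (SE 0.39, adjusted p = 1). Of the fits that were run, the combination passed only with GC content and length trends removed (adjusted p = 0.0161). That setting was added after the data were seen. The adjusted p was 0.0994 under quantile normalization and 0.302 with no filter.

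CYP2S1 (chromosome 19, 41193049 to 41207539, plus strand), an extrahepatic P450 of epithelia, was the other abundant member of the CYP2 family. In 97H cells CYP2S1 had 24.3 FPKM with the combination, 14.4 with the XPO1 inhibitor, 26.5 with the CDK4/6 inhibitor and 14.1 in the control. Huh7 cells expressed CYP2S1 at 4.97 FPKM with the CDK4/6 inhibitor and 2.38 in the control. In these lines the libraries with the CDK4/6 inhibitor, alone or combined, were 1.72 to 2.09 times their controls, and the 97H library with the XPO1 inhibitor alone was at 1.02 times. CYP2S1 in PLC cells was at 0.683 FPKM with the combination, 0.337 with the XPO1 inhibitor, 1.19 with the CDK4/6 inhibitor and 0.961 in the control. The PLC libraries with the XPO1 inhibitor, alone or combined, were below the control there, so the lines did not share an order. All PLC values were at or under 1.19 FPKM, and differences under 1 FPKM are not firmly measured.

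Family 4 oxidizes fatty acids and eicosanoids; CYP4F3 inactivates leukotriene B4, CYP4F11 hydroxylates fatty acids and vitamin K, and CYP4F12 takes arachidonic acid and some antihistamines. These genes lie together on chromosome 19 and are close paralogs. In 97H cells CYP4F11 had 9.28 FPKM with the combination, 11.9 with the XPO1 inhibitor, 19.2 with the CDK4/6 inhibitor and 21.3 in the control. The other lines reached at most 0.116 FPKM in any library, and in 97H the combination library was lowest, at 0.435 times the control. PLC cells expressed CYP4F3 at 7.47 FPKM with the combination, 3.08 with the XPO1 inhibitor, 3.51 with the CDK4/6 inhibitor and 0.933 in the control. CYP4F3 in 97H cells was at 7.32 FPKM with the combination, 7.05 with the XPO1 inhibitor, 5.44 with the CDK4/6 inhibitor and 7.34 in the control. CYP4F3 thus ranged 8.01-fold between the combination and the control of PLC, while the 97H libraries lay within a narrow band. In Huh7 cells CYP4F3 had 3.48 FPKM with the CDK4/6 inhibitor and 3.72 in the control. CYP4F12 was low in all lines. PLC cells expressed CYP4F12 at 0.943 FPKM with the combination, 0.505 with the XPO1 inhibitor, 1.01 with the CDK4/6 inhibitor and 0.376 in the control. CYP4F12 in 97H cells was at 1.88 FPKM with the combination, 1.10 with the XPO1 inhibitor, 1.56 with the CDK4/6 inhibitor and 1.04 in the control. In Huh7 cells CYP4F12 had 1.52 FPKM with the CDK4/6 inhibitor and 2.32 in the control, so the Huh7 range overlapped that of 97H and lay above that of PLC. CYP4V2, CYP4F2, CYP4F22, CYP4B1 and CYP4X1 reached at most 0.661 FPKM.

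CYP27A1 (chromosome 2, 218781749 to 218815293, plus strand), the mitochondrial sterol 27-hydroxylase that begins the acidic bile acid pathway, was the only one of the 6 bile acid and cholesterol P450s above 1 FPKM. 97H cells expressed CYP27A1 at 109 FPKM with the combination, 51.9 with the XPO1 inhibitor, 93.9 with the CDK4/6 inhibitor and 62.4 in the control. CYP27A1 in Huh7 cells was at 43.7 FPKM with the CDK4/6 inhibitor and 32.2 in the control. In PLC cells CYP27A1 had 6.00 FPKM with the combination, 4.52 with the XPO1 inhibitor, 5.59 with the CDK4/6 inhibitor and 3.97 in the control. The CDK4/6 inhibitor libraries were 1.36 to 1.51 times their controls in the 3 lines, and the XPO1 inhibitor libraries were at 1.14 times in PLC and 0.833 times in 97H. CYP7A1, the rate-limiting enzyme of the classic bile acid pathway, reached 0.0405 FPKM and CYP8B1, which sets cholic acid output, reached 0.0519 FPKM.

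The vitamin A and D P450s were split by line. CYP26A1 and CYP26B1 both clear retinoic acid. PLC cells expressed CYP26A1 at 20.1 FPKM with the combination, 16.5 with the XPO1 inhibitor, 14.3 with the CDK4/6 inhibitor and 7.49 in the control. All 4 97H libraries were listed at 0, and Huh7 had 0.262 FPKM with the CDK4/6 inhibitor and 0.158 FPKM in the control. The combination stood at 2.68 times the PLC control, which was the lowest of the 4 PLC libraries. CYP26B1 was instead a Huh7 gene. CYP26B1 in Huh7 cells was at 16.8 FPKM with the CDK4/6 inhibitor and 15.3 in the control. PLC libraries lay between 0.491 and 1.73 FPKM and 97H libraries between 0.235 and 0.375 FPKM, below both Huh7 libraries.
CYP26A1 is itself a target of retinoic acid receptors, and the second of its 2 start regions in RefSeq (GRCh38.p14, chr10:93073643-93073942, plus strand) is shown for the pair of repeats in capitals, first base at -90. They are the reverse complement of 2 copies of AGTTCA in the same direction, 5 bases apart, a pattern found in 4 of the 35116 promoter entries (0.0114%); CYP26A1 was the only member with it.
CYP26A1: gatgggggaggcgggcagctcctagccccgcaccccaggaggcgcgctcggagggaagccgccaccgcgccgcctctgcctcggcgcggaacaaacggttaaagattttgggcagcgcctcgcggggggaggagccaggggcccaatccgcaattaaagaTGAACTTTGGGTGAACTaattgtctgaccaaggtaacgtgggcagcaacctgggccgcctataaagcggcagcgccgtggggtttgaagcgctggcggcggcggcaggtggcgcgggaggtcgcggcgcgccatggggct
The same arrangement of AGGTCA is in 0.0057% of entries and in no member. CYP24A1, which inactivates vitamin D, was highest in 97H. In 97H cells CYP24A1 had 3.10 FPKM with the combination, 5.12 with the XPO1 inhibitor, 3.61 with the CDK4/6 inhibitor and 3.59 in the control. PLC cells expressed CYP24A1 at 1.13 FPKM with the combination, 1.66 with the XPO1 inhibitor, 1.76 with the CDK4/6 inhibitor and 0.808 in the control. Huh7 libraries were at 0.125 FPKM with the CDK4/6 inhibitor and 0.0894 FPKM in the control. The vitamin D activating enzymes CYP2R1 and CYP27B1 peaked at 1.95 FPKM (PLC, CDK4/6 inhibitor) and 1.21 FPKM (PLC, combination).

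Of the 6 steroid hormone P450s only CYP19A1, the aromatase that makes estrogens, reached 1 FPKM, with 1.45 FPKM in the Huh7 control. CYP20A1, an orphan P450, lay between 0.623 and 1.95 FPKM in the 10 libraries. CYP20A1 in PLC cells was at 1.95 FPKM with the combination, 1.46 with the XPO1 inhibitor, 1.95 with the CDK4/6 inhibitor and 1.09 in the control. In 97H cells CYP20A1 had 0.732 FPKM with the combination, 0.960 with the XPO1 inhibitor, 0.623 with the CDK4/6 inhibitor and 0.878 in the control. Huh7 cells expressed CYP20A1 at 1.39 FPKM with the CDK4/6 inhibitor and 1.29 in the control, inside the PLC range.

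**Figure D4:**
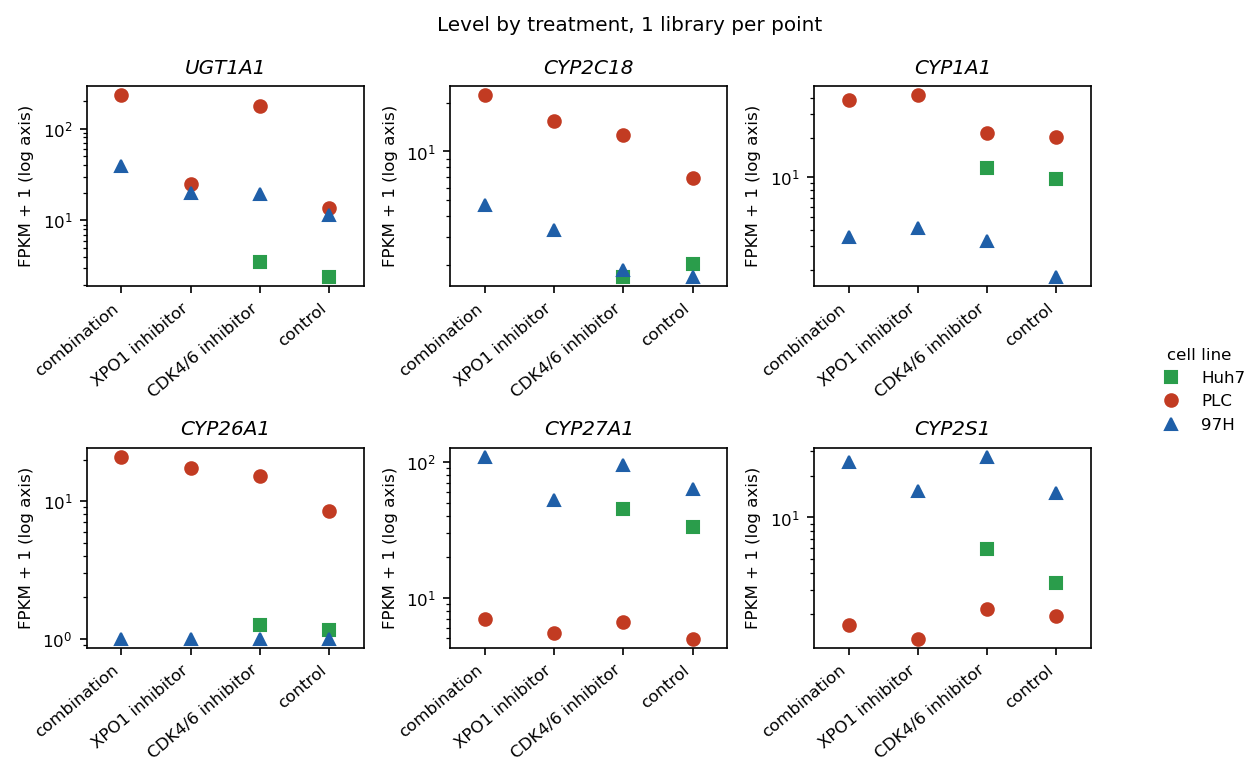
FPKM + 1 (log axes, which differ between panels) of 6 members by treatment, 1 library per point, by line. UGT1A1 is high in the PLC libraries with the combination (230.2 FPKM) and the CDK4/6 inhibitor (177 FPKM), and CYP2C18 and CYP26A1 are highest with the combination in PLC (21.2 and 20.1 FPKM).

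Across the 19 tested members, 0 were called with limma in any of the 6 treatment comparisons. For the combination against control, 0.792% of all tested genes were called (83 of 10477), 0.305% higher and 0.487% lower, and for the other 5 comparisons 0%. The comparisons with the control share the control libraries. At an unadjusted p under 0.05 there were 3 members and 1301 genes for the combination, 2 members and 258 genes for the XPO1 inhibitor, and 1 member and 922 genes for the CDK4/6 inhibitor, each against control. The combination gave 1 member and 345 genes against the CDK4/6 inhibitor and 1 member and 520 genes against the XPO1 inhibitor, and the interaction of the inhibitors gave 0 members and 60 genes. The only members involved were UGT1A1, CYP2C18 and CYP1A1. The median log2 difference for the combination against control was 0.35 over the members and 0.07 over all tested genes, with 16 of 19 members above 0. For the CDK4/6 inhibitor the medians were 0.16 over the members and 0.03 over all genes, and for the XPO1 inhibitor 0.17 and 0.10. Without the PLC control library the medians of the members were 0.12 for the combination, 0.033 for the CDK4/6 inhibitor and -0.014 for the XPO1 inhibitor. Without the PLC library with the CDK4/6 inhibitor the median for that inhibitor was -0.0050.

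Within single lines, members at least 1 log2 unit from their control on the log2(FPKM + 1) scale were counted beside the share of all tested genes. In PLC 4 of 19 were higher with the combination (11.9% of all tested genes), 4 with the XPO1 inhibitor (16.5%) and 3 with the CDK4/6 inhibitor (18.2%), and 0 were lower by that much (7.46%, 6.04% and 5.29% of all). In 97H 4 were higher with the combination (7.67%) and 2 with the XPO1 inhibitor (2.15%), 1 was lower with the combination (4.92%), and 0 passed with the CDK4/6 inhibitor (2.36% higher and 4.02% lower). In Huh7 0 of 19 passed in either direction (3.91% and 4.33%). These are descriptions of 1 library against 1 library.

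Between lines the members differed widely. For 15 of the 19, the line with the highest mean did not overlap the other lines; 97H was highest for 11 members (10 without overlap), PLC for 5 (3) and Huh7 for 3 (2). Over all tested genes 35.8% had such a line without overlap (10.6% with 97H highest, 13.1% with PLC and 12.2% with Huh7). A member that was high in a single line could pass the filter through that line. These counts, and the calls and p-values of members between lines given below, are therefore a description. PLC against 97H called 17 of 19 members, 6 higher and 11 lower, where 49.3% of all tested genes were called (31.1% higher, 18.1% lower). Huh7 against PLC called 10, 5 in each direction (28.3% of all genes, 13.4% higher, 14.9% lower). Huh7 against 97H called 14, 3 higher and 11 lower (35.2% of all genes, 20.1% higher, 15.1% lower).

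In PLC against 97H the UGT1A genes went both ways. UGT1A10 gave a log2 difference of -7.26 (SE 0.23, adjusted p = 1.67e-08), and UGT1A8 and UGT1A6 were also lower in PLC (-4.84 and -4.30), while UGT1A1 was higher with a log2 difference of 1.58 (SE 0.51, adjusted p = 0.0267). The PLC values of the first 3 are near 0, so the pseudocount limits the size of their differences. UGT1A1 was at 12.5 FPKM in the PLC control and 10.6 in the 97H control, and at 23.8 and 18.8 with the XPO1 inhibitor. With the CDK4/6 inhibitor it was at 177 and 18.3 FPKM, and with the combination at 230.2 and 38.3. The UGT1A sum was lower in PLC in the control (12.9 against 214 FPKM) and with the XPO1 inhibitor (23.8 against 264). It was also lower with the combination (231 against 324) and higher with the CDK4/6 inhibitor (178 against 166). CYP27A1 (-3.69), CYP4F11 (-3.88), CYP2S1 (-3.51), CYP1B1 (-2.87), UGT2B7 (-2.76), CYP3A5 (-1.68) and CYP24A1 (-1.06) were lower in PLC, with adjusted p between 4.41e-07 and 0.00179. CYP1A1 (3.26) and CYP2C18 (2.32) were higher in PLC, as were CYP26A1 and UGT2B4, which were listed at 0 in 97H. The call of UGT1A1 was lost without the PLC combination, PLC CDK4/6 inhibitor, 97H combination or 97H CDK4/6 inhibitor library (adjusted p = 0.0568 to 0.129). CYP4F3 (-0.89, adjusted p = 0.0482) lost its call when any 1 library was left out other than the 2 combination libraries and the PLC library with the CDK4/6 inhibitor (0.0802 to 0.153). CYP20A1 (0.53, adjusted p = 0.0486) lost its call when any 1 library was left out other than the PLC and 97H controls (0.0603 to 0.166). CYP26B1 and CYP4F12 were not called (adjusted p = 0.0676 and 0.0722).

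Huh7 was higher than both other lines for CYP26B1 (3.01 against PLC and 3.55 against 97H, adjusted p = 4.91e-05 and 1.22e-05), with UGT2B4 called against 97H only (adjusted p = 0.000435; 0.0704 against PLC). It was higher than PLC and lower than 97H for CYP27A1 (2.72 and -0.97), CYP2S1 (1.22 and -2.29) and UGT2B7 (1.32 and -1.44). CYP1A1 lay in between the other way round, lower than PLC (-1.02) and higher than 97H (2.24). UGT1A1 and CYP24A1 were lower in Huh7 than in either line (-4.01 and -2.43 for UGT1A1, -1.01 and -2.06 for CYP24A1). With 2 Huh7 libraries, leaving out either of them ended the calls of CYP1A1, CYP24A1, CYP2S1 and UGT2B7 against PLC (adjusted p = 0.0701 to 0.303) and of CYP27A1 against 97H (0.135 and 0.159). UGT1A1 lost its calls against PLC and 97H without the Huh7 library with the CDK4/6 inhibitor (0.0545 and 0.269). CYP4F12 (0.81, adjusted p = 0.0485) lost its call against PLC when any 1 library was left out other than the Huh7 and PLC libraries with the CDK4/6 inhibitor (0.0628 to 0.472). CYP3A5 and UGT2B7 lost theirs against 97H without the Huh7 control (0.181 and 0.0700). Libraries of the other lines also ended calls: the PLC library with the CDK4/6 inhibitor for CYP24A1 and CYP2S1 against PLC (0.0760 and 0.0537), the 97H library with the CDK4/6 inhibitor for CYP27A1 against 97H (0.0932), and the 97H control for CYP3A5 and UGT1A1 against 97H (0.0554 and 0.0753). CYP1A1 against PLC was lost without the combination or XPO1 inhibitor library of PLC, or without any 1 of the treated 97H libraries (0.0547 to 0.0749).

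**Figure D5:**
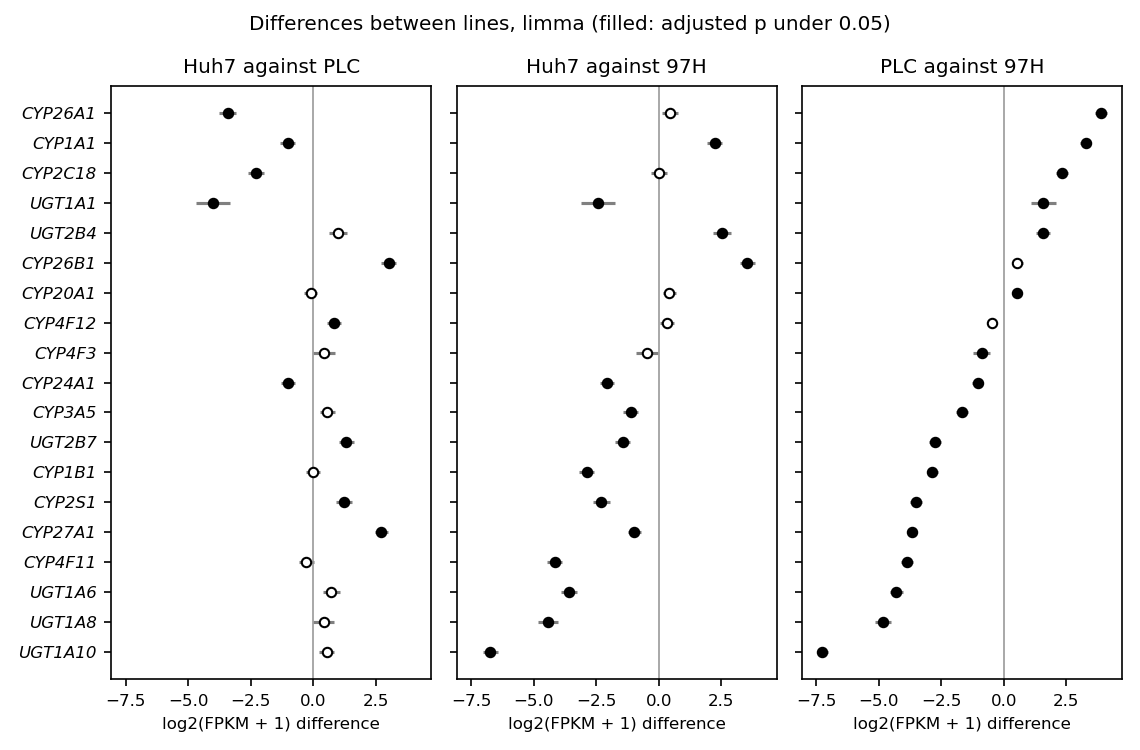
Log2(FPKM + 1) difference between lines for the 19 tested members (points, limma, with bars of 1 SE; filled where adjusted p is under 0.05), for Huh7 against PLC, Huh7 against 97H and PLC against 97H. UGT1A10, UGT1A8, UGT1A6 and CYP4F11 lie left of 0 in both panels against 97H; for CYP26A1 and UGT2B4, listed at 0 in 97H, the size depends on the pseudocount.

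Genes that serve the same system were taken from lists of redox partners, heme metabolism, glucuronic acid supply, regulators, other aryl hydrocarbon receptor targets, other oxidizing or reducing enzymes, other conjugating enzymes, and transporters. In the treatment comparisons 0 of their tested genes were called with limma, and the smallest adjusted p for the combination against control was that of the sulfotransferase SULT1C2. SULT1C2 in PLC cells was at 6.01 FPKM with the combination, 4.60 with the XPO1 inhibitor, 1.70 with the CDK4/6 inhibitor and 0.246 in the control. In 97H cells SULT1C2 had 36.4 FPKM with the combination, 24.8 with the XPO1 inhibitor, 9.58 with the CDK4/6 inhibitor and 10.2 in the control. With limma this was a log2 difference of 2.11 (SE 0.42, adjusted p = 0.0738), which did not pass. At an unadjusted p under 0.05 the combination against control gave 1301 of all 10477 tested genes. In the lists it gave 3 of 26 oxidizing or reducing enzymes and 3 of 23 conjugating enzymes. It gave 2 of 12 heme genes, 2 of 22 regulators and 1 of 6 glucuronic acid genes. Among the rest were 1 of 4 aryl hydrocarbon receptor targets, 1 of 12 transporters and 0 of 9 redox partners. BAAT, which joins bile acids to glycine and taurine, followed with a log2 difference of 2.26 (SE 0.57, adjusted p = 0.145).

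Between PLC and 97H, 5 of 9 redox partners were higher and 2 lower in PLC, beside 31.1% and 18.1% of all tested genes. POR, the electron donor of microsomal P450s, was lower in PLC. PLC cells expressed POR at 34.1 FPKM with the combination, 32.2 with the XPO1 inhibitor, 29.03 with the CDK4/6 inhibitor and 66.3 in the control. POR in 97H cells was at 118 FPKM with the combination, 112 with the XPO1 inhibitor, 121 with the CDK4/6 inhibitor and 94.6 in the control. With limma this was a log2 difference of -1.51 (SE 0.25, adjusted p = 0.000756). Of 12 heme genes 5 were higher and 3 lower, with the synthesis enzymes ALAD and UROD higher in PLC (1.67 and 1.14) and the heme-degrading HMOX1 lower (-1.43). Of 6 glucuronic acid genes 1 was higher and 3 lower. UGDH, which makes UDP-glucuronic acid, was among the lower, with a log2 difference of -1.61 (SE 0.35, adjusted p = 0.00375).

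Of 22 tested regulators 10 were higher and 3 lower in PLC than in 97H, beside 31.1% and 18.1% of all tested genes. AHR and its partner ARNT were not called between these lines (adjusted p = 0.478 and 0.273), nor with the combination against control (0.891 and 0.809). NR1I3, encoding CAR, was listed at 0 in all 10 libraries, and NR1I2, encoding PXR, had a mean under 1 FPKM with 0.0301 FPKM at most in PLC, 2.19 FPKM in 97H and 3.72 FPKM in Huh7. HNF4A was higher in PLC (1.29, adjusted p = 0.00258). KEAP1, the adaptor that marks NRF2 for destruction, had the smallest p of the regulators. In PLC cells KEAP1 had 39.6 FPKM with the combination, 40.1 with the XPO1 inhibitor, 37.6 with the CDK4/6 inhibitor and 58.5 in the control. 97H cells expressed KEAP1 at 3.02 FPKM with the combination, 3.82 with the XPO1 inhibitor, 4.70 with the CDK4/6 inhibitor and 3.88 in the control. All 4 97H libraries were below every PLC library, with a log2 difference of 3.20 (SE 0.21, adjusted p = 1.69e-06). The NRF2 gene itself, NFE2L2, was also higher in PLC (1.42, adjusted p = 0.00237).

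Of the 4 tested aryl hydrocarbon receptor targets other than P450s, 0 were higher and 3 lower in PLC than in 97H. This was the opposite side to CYP1A1 (3.26) and the same side as the related CYP1B1 (-2.87). Over all tested genes 31.1% were higher and 18.1% lower in PLC. ALDH3A1, an aldehyde dehydrogenase, came to a log2 difference of -6.76 (SE 0.24, adjusted p = 2.94e-08), and the quinone reductase NQO1 to a log2 difference of -4.70 (SE 0.26, adjusted p = 4.53e-07); TIPARP was not called (adjusted p = 0.428). Among 26 tested oxidizing or reducing enzymes 5 were higher and 13 lower in PLC. AKR1B10 in 97H cells was at 809 FPKM with the combination, 1672 with the XPO1 inhibitor, 1201 with the CDK4/6 inhibitor and 1848 in the control. This aldo-keto reductase did not exceed 1.56 FPKM in PLC or 8.92 FPKM in Huh7. In 97H cells CES1 had 699 FPKM with the combination, 413 with the XPO1 inhibitor, 539.6 with the CDK4/6 inhibitor and 359.5 in the control. CES1, the main carboxylesterase of liver, did not exceed 0.537 FPKM in PLC. CBR3 (-4.44) and DHRS9 (-4.60) were the next by p.

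Conjugating enzymes other than the UGT1A and UGT2B genes numbered 12 higher and 5 lower in PLC than in 97H out of 23, beside 31.1% higher and 18.1% lower of all tested genes, which were also more often higher in PLC. PLC cells expressed GSTP1 at 6154 FPKM with the combination, 4323 with the XPO1 inhibitor, 5634 with the CDK4/6 inhibitor and 1996 in the control. GSTP1 in 97H cells was at 174 FPKM with the combination, 122 with the XPO1 inhibitor, 174 with the CDK4/6 inhibitor and 119.7 in the control. This glutathione transferase gave a log2 difference of 4.83 (SE 0.23, adjusted p = 2.17e-07). GSTM2 was higher (3.03) and MGST1 (-4.89) and GSTA1 (-4.25) lower in PLC. Of 12 transporters 3 were higher and 5 lower. ABCC3, an efflux pump that carries glucuronides out of the cell, was lower in PLC with a log2 difference of -5.01 (SE 0.23, adjusted p = 1.35e-07). In 97H cells ABCC3 had 38.8 FPKM with the combination, 39.2 with the XPO1 inhibitor, 39.7 with the CDK4/6 inhibitor and 27.8 in the control. PLC cells expressed ABCC3 at 0.238 FPKM with the combination, 0.185 with the XPO1 inhibitor, 0.124 with the CDK4/6 inhibitor and 0.0496 in the control. SLC22A3 (-1.87) and ABCC1 (-2.13) were also lower in PLC.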

How the data were processed

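RNA of 3 human liver cancer cell lines was sequenced in 10 libraries prepared from total RNA (Trizol) with a TruSeq RNA kit, per the labels' protocols. The tools CASAVA 1.8.2, STAR 2.4.2g1, featureCounts and Subread (the last 2 without a version) and the build GRCh38 are named per the submitters' processing notes. The authors deposited FPKM for 20030 genes; how FPKM was obtained, and any scaling between libraries, is not given in the sources used here. Whole reads could not be recovered, so no count model was run. The smallest member values above 0 (35 values, at most 1.45e-06 FPKM) were treated as 0 in the text and left as they are in the tests.

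Tests on log2(FPKM + 1) used limma 3.58.1 under R 4.3.3 (eBayes with a variance trend, two-sided), with Benjamini-Hochberg adjustment over the 10477 genes whose mean reached 1 FPKM. The CDK4/6 inhibitor against control used 10 libraries (4 residual degrees of freedom), with cell line as a block; the other treatment comparisons used 8 libraries, those of PLC and 97H, with 3 residual degrees of freedom. Line comparisons used 10 libraries with treatment in the model. Pairing by cell line comes from the labels; deviations of control and CDK4/6 inhibitor libraries of a line from their group means correlated at 0.901, 0.665 and 0.818. The labels do not say that the libraries of a line came from separate cultures, so p-values measure the spread between libraries only. The fit of the combination against control was run on simulated data, where the median estimated difference was checked against the true one. The other fits, including the line comparisons, were not simulated.

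The members and lists were chosen with earlier results of these data known. Every member with a mean of at least 1 FPKM is given with its values, members that reached 1 FPKM in some library with their highest value, and the rest by range or, where listed at 0, by name; from the other pathway lists, up to 4 genes with the smallest p are given, together with AHR, ARNT, HNF4A, NFE2L2, NR1I2 and NR1I3, which were added after their values were seen. Some genes that these rules name are not reported here. Positions come from GENCODE 29 (GRCh38) and promoter sequences from RefSeq (GRCh38.p14). Pseudocounts of 0.1 and 0.5, no filter, a filter over the libraries of the fit, quantile normalization, median ratio scaling, a single prior variance, other sets of libraries, models without cell line or treatment, and leaving out each library were tried; removing trends with GC content and length was added after the data were seen.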

Additional observations from a re-analysis of the deposited data

Results flagged for a closer look

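For 2 members every treated library lay on opposite sides of its control in PLC and in 97H. The difference between the lines was not tested. The treated libraries of a line share the same control, and the share of all tested genes with this pattern was not computed. The count is therefore only a description. CYP4F3 was above the control in the 3 treated PLC libraries, by 2.13 log2(FPKM + 1) units with the combination, 1.08 with the XPO1 inhibitor and 1.22 with the CDK4/6 inhibitor, and below it in the 3 treated 97H libraries, by -0.0039, -0.051 and -0.37 in the same order of treatments. The PLC control had the lowest CYP4F3 level of the 10 libraries, 0.933 FPKM, and the first of the 97H values is close to 0.

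UGT1A8 was below the PLC control by -0.019 with the combination, -0.095 with the XPO1 inhibitor and -0.095 with the CDK4/6 inhibitor, and above the 97H control by 1.82, 1.22 and 0.31 in the same order. All PLC values of UGT1A8 were at or under 0.0678 FPKM, so the PLC side rests on values near 0. The uncertain division of reads between UGT1A genes touches this result, and its part in it was not tested.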

How the results depend on the processing

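Of 9 counts of called members, 6 for treatments and 3 for lines, those for PLC against 97H (17) and for every treatment comparison other than the combination against control (0 each) stayed within 1.5 times their value in all the fits that were run. For the combination against control 0 members were called as reported, 1 under median ratio scaling (UGT1A1), 3 with GC content and length trends removed (UGT1A1, CYP2C18 and CYP1A1, beside 608 genes in all), and 0 to 1 without 1 library. Huh7 against PLC gave 10 calls as reported, 25 with no filter and 5 to 10 without 1 library. Huh7 against 97H gave 14, 27 with no filter and 11 to 14 without 1 library. With no filter more members enter the test (62). With no replicate block, that is without the pairing by cell line, 0 members were called in each of the 6 treatment comparisons. Single members were followed across the fits only where the unadjusted p as reported was under 0.05. These were 44 results between lines and 8 between treatments. Results chosen by a small p are less likely to change direction, and none of them changed direction. The median over the members did in 3 comparisons: for the CDK4/6 inhibitor against control without the PLC library with that inhibitor (-0.0050, against 0.16 as reported), for the XPO1 inhibitor against control without the PLC control (-0.014) and with GC content and length trends removed (-0.030, against 0.17 as reported), and for the interaction in 8 of 18 fits (0.014 to 0.15, against -0.028 as reported). Of the 44 followed member results between lines 16 changed side of the threshold in at least 1 fit, and of the 8 between treatments 3 did. Of 9 medians over the members 6 moved beyond their spread. The cause of these changes was not tested. The filter over the libraries of the fit equals the filter as reported for fits of 10 libraries and was not run there. FPKM carries no depth, so no counting interval can be given for low members, and differences under 1 FPKM are not firmly measured.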

Other observations

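Other pathway genes in the comparisons with Huh7, beside 13.4% higher and 14.9% lower of all tested genes against PLC and 20.1% and 15.1% against 97H, gave the following counts. Against PLC, Huh7 was higher in 2 and lower in 3 of 9 redox partners, higher in 0 and lower in 6 of 12 heme genes, and higher in 5 and lower in 1 of 22 regulators. It was higher in 7 and lower in 2 of 26 oxidizing or reducing enzymes, higher in 9 and lower in 3 of 23 conjugating enzymes, higher in 5 and lower in 2 of 12 transporters, and higher in 1 of 4 aryl hydrocarbon receptor targets, while 0 of 6 glucuronic acid genes were called. Against 97H, Huh7 was higher in 10 and lower in 2 of 22 regulators, higher in 4 and lower in 9 of 26 oxidizing or reducing enzymes, higher in 12 and lower in 4 of 23 conjugating enzymes, and higher in 5 and lower in 6 of 12 transporters. It was higher in 1 and lower in 2 redox partners, higher in 1 and lower in 4 heme genes, higher in 2 glucuronic acid genes, and lower in 2 aryl hydrocarbon receptor targets.

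Markers of other cell types were read as a check of the cultures. Biliary marker sums (4 genes) were 474 to 582 FPKM in Huh7, 14.5 to 29.7 FPKM in PLC and 427 to 673 FPKM in 97H. Fibroblast and stellate marker sums (6 genes) were 34.1 to 139 FPKM in Huh7, 0.146 to 0.433 FPKM in PLC and 3.77 to 32.0 FPKM in 97H. Endothelial marker sums (4 genes) were at most 1.39 FPKM in Huh7, 0.282 FPKM in PLC and 4.94 FPKM in 97H. Their part in the member levels was not tested.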
